A study of Mus musculus with 12 samples.

Results

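Kruppel-like factors are zinc-finger transcription factors that bind GC-rich and CACCC sequences. The members described here are Klf2, Klf3, Klf4, Klf6, Klf9, Klf10 and Klf13, 7 of 17133 genes tested in mouse splenic B cells that were resting or stimulated with LPS. They were found by name: the arrays carried 12 probes whose gene name was 1 of these symbols, no probe carried the older symbols Copeb, Bteb1 or Tieg1, and each gene was read at its brightest probe over the 12 arrays. As background, Klf2 and Klf4 are known for holding naive lymphocytes in quiescence, and Klf2 also controls receptors that guide lymphocytes through blood and lymphoid organs. Klf3 is a repressor that recruits CtBP corepressors, while Klf9, Klf10 and Klf13 recruit the Sin3A corepressor. Activation of a lymphocyte is known to lower several of these factors, and LPS, a bacterial cell wall component, activates B cells through Toll-like receptor signalling.

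All cells came from spleens of C57BL/6 mice that carried the RERT-Cre allele, a Cre recombinase fused to an oestrogen receptor domain and switched on by tamoxifen in any cell that makes it. The tested mice were Ebf1 fl/fl, with both copies of Ebf1 flanked by lox sites, and the controls were Ebf1 +/fl, so that the controls also carried Cre and 1 floxed copy. Ebf1 is a transcription factor that establishes and maintains the B lineage. Both genotypes received 3 mg of tamoxifen citrate a day for 4 days and were killed on day 10. B cells were sorted as B220+AA4.1- or as B220+AA4.1-CD21lo, without a statement of which gate gave which sample. The groups were resting +/fl, resting fl/fl, LPS +/fl and LPS fl/fl, each with 3 arrays. The dose and time of LPS, the age and the sex of the mice were not given in the sources used here. Nothing in the labels says that the 3 arrays of a group were separate animals, and resting +/fl replicate 3 and LPS +/fl replicate 1 carried 1 sample-name number, so p-values measure the spread between arrays.

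Values are log2 signal minus the 75th percentile of the same array, so 0 is the level of a bright probe at that percentile and 1 unit is a factor of 2. A gene was called when its adjusted p, from a limma fit of the 4 groups over all 12 arrays with Benjamini-Hochberg adjustment over all genes, was below 0.05. Between 54.3% and 61.2% of probes were well above background on 11 arrays and 83.1% on LPS fl/fl replicate 2. All 9 B cell markers were above background on 12 of 12 arrays. At the Ebf1 probe for its RefSeq transcript the resting fl/fl mean was 0.62 higher than in +/fl (SE 0.15, adjusted p = 0.0384 over all probes), and at a second, dimmer probe it was 1.90 lower on the log2 scale (−1.90, SE 0.48, adjusted p = 0.0432), so these probes do not settle how far the gene was deleted. In bulk samples like these, fewer cells of a type and less RNA per cell cannot be told apart. Of genes called in the resting genotype comparison 52.6% were higher in fl/fl, against 19.5% with arrays scaled by their median. For the LPS genotype comparison that share was 52.9% against 11.3%, and for the LPS response of fl/fl it was 54.4% against 37.6%.

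The promoters of 6 of the 7 members were found in the RefSeq table for the GRCm38.p6 build, and they are shown because all 6 genes were called lower after LPS in +/fl cells at their brightest probes. Each stretch is the 120 bases just before the annotated start, 5′ to 3′ on the gene's strand. Capitals mark matches on either strand to the GC box, whose letters are GGGCGG, to the CACCC box, to the CCAAT box, to the MEF2 consensus, to the FOXO core, whose letters are GTAAACA, and to the cAMP response element core, whose letters are TGACGT. Where matches touch or overlap, as a GC box and a CACCC box do in Klf13, they form 1 capital run. Klf10 is named only.
Klf2, chr8:72318942-72319061, plus strand: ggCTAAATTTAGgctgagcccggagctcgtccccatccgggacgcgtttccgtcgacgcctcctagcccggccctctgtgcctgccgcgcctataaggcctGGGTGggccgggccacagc
Klf4, chr4:55532476-55532595, minus strand: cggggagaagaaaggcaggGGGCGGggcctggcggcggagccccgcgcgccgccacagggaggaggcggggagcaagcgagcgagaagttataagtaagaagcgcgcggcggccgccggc
Klf6, chr13:5861369-5861488, plus strand: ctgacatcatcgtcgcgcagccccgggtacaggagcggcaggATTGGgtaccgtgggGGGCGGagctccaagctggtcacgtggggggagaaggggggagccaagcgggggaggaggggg
Klf3, chr5:64803401-64803520, plus strand: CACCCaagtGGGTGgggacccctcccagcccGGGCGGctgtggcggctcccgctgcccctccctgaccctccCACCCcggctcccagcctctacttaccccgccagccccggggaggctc
Klf9, chr19:23141106-23141225, plus strand: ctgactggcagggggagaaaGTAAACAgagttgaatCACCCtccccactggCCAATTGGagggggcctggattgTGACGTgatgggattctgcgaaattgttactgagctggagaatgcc
Klf13, chr7:63938916-63939035, minus strand: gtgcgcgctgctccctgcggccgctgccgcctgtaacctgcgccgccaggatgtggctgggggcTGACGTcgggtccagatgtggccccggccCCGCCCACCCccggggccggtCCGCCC
The MEF2 consensus, bound by factors that act below the kinase ERK5, was present in Klf2 alone of the 6, starting 118 bases before the start, and in 3.19% of 32851 promoter windows of 300 bases. The FOXO core was present in Klf9 alone and in 3.65% of all windows. The cAMP response element core was present in Klf9 and Klf13 and in 7.51% of all windows. A GC box was found in 5 of the 6 windows (not in Klf9) and in 35.7% of all, and a CACCC box, the letters that Kruppel-like factors themselves bind, in 4 of 6 (not in Klf4 or Klf6) and in 57.5% of all. A CCAAT box was found in Klf6, Klf9 and Klf13 and in 37.4% of all windows. The windows of the 6 genes also ran over 300 bases, 250 before and 50 after the start, and so beyond the 120 bases printed. The GC boxes of Klf2 and the CCAAT boxes of Klf13 lie outside the printed letters. These motifs were chosen with the sequences in view, and a match describes letters only.

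After LPS, at the brightest probes, 6 of the 7 members fell in +/fl cells and 4 of 7 fell in fl/fl cells, and none rose in either genotype. The fl/fl count leaves out Klf2, whose brightest probe differed by −0.24 (adjusted p = 0.296). Its other probe fell by −3.91 in fl/fl (adjusted p = 6.88e-07 over all probes), so this count depends on the probe read. The +/fl count includes Klf9 (adjusted p = 0.0457), whose resting and LPS values overlapped and whose call was lost in 22 of 31 alternatives. Over all genes 57.7% were called in +/fl cells, 30.7% higher and 27.0% lower, and 55.6% in fl/fl cells, 30.2% higher and 25.4% lower. The median difference of the 7 members was −1.74 in +/fl and −2.08 in fl/fl on the log2 scale, against medians over all genes of −0.02 and 0.07. The values of resting and LPS arrays did not overlap for 5 members in +/fl cells and 4 in fl/fl cells, where 65.7% and 62.1% of all genes did not overlap. The LPS responses of both genotypes are given side by side, and their difference was tested as an interaction, which no member passed (0.163% of all genes did).

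**Figure D1:**
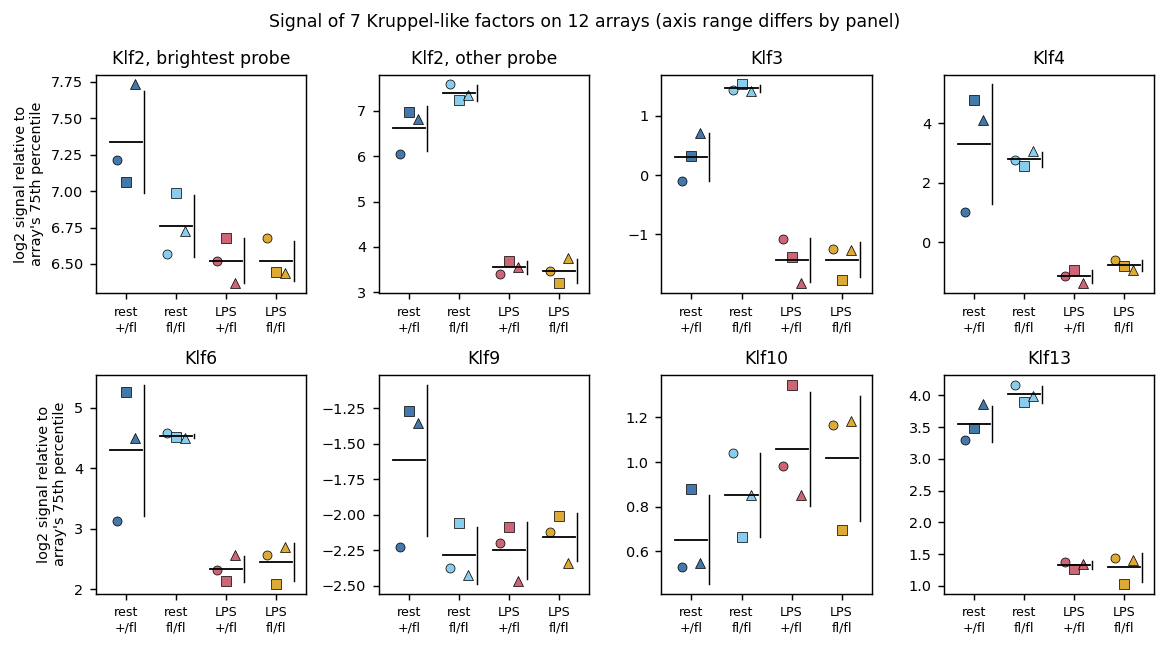
Log2 signal minus the 75th percentile of its array (y axis, range set per panel) in the 4 groups (x axis), with circles, squares and triangles for replicates 1, 2 and 3, a horizontal bar for the mean and a vertical line for 1 SD. Panels show the brightest probe of each member and the other probe of Klf2. Klf3, Klf4, Klf6 and Klf13 were lower on all 6 LPS arrays than on all 6 resting arrays, and Klf10 overlapped in every pair of groups that is next to each other in level.

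Klf4, which restrains the cell cycle in many cell types, had the largest LPS difference of the 7 in both genotypes at the brightest probes. Its values were 1.01, 4.77 and 4.11 on the resting +/fl arrays (replicates 1 to 3) and 2.77, 2.56 and 3.06 on the resting fl/fl arrays. After LPS they were −1.13, −0.93 and −1.38 in +/fl and −0.58, −0.81 and −0.93 in fl/fl. All 6 LPS arrays lay below all 6 resting arrays, and resting +/fl replicate 1 stood lower than the other 5 resting arrays. The fall was 21.7-fold in +/fl (−4.44 on the log2 scale, SE 0.76, adjusted p = 0.000583) and 11.8-fold in fl/fl (−3.57, SE 0.76, adjusted p = 0.00253). The +/fl difference was −5.59 without resting +/fl replicate 1 (adjusted p = 7.22e-07) and −3.71 without replicate 2 (adjusted p = 0.00182). Within slides, each of which held 4 arrays, the +/fl difference was −5.92 on slide 1 and −2.14 on slide 2, and the fl/fl difference −3.49 on slide 2 and −3.75 on slide 3. With slide as a block it was −4.47 (adjusted p = 0.00136) and −3.54 (adjusted p = 0.00475). Its group means were highest in resting +/fl, then resting fl/fl, then LPS fl/fl and lowest in LPS +/fl cells, and within each state the genotypes overlapped.

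Klf2, the member most closely tied to lymphocyte quiescence and recirculation, gave different answers at its 2 probes, whose positions are given on mm7, the build in the file headers. The brighter probe, at chr8:70842757-70842816, has a G and C share of 78.3%, and it is shown with its first longest run of G and C in capitals.
Klf2 brighter probe: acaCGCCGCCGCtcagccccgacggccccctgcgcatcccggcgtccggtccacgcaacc
The other probe, at chr8:70844133-70844192 and farther 3′ in the transcript, has a G and C share of 43.3%. At the brighter probe the resting +/fl arrays gave 7.22, 7.06 and 7.73, and the resting fl/fl arrays gave 6.57, 6.99 and 6.73. After LPS it gave 6.52, 6.68 and 6.37 in +/fl cells and 6.68, 6.44 and 6.44 in fl/fl cells. Here only the resting +/fl arrays stood apart from the other groups. Klf2 fell 1.76-fold in +/fl cells (−0.81, SE 0.18, adjusted p = 0.00340), and in fl/fl cells the difference of −0.24 was not called (95% confidence interval −0.65 to 0.17, adjusted p = 0.296). Within slides the +/fl difference was −0.54 on slide 1 and −0.70 on slide 2, and slide as a block gave −0.70 (adjusted p = 0.0115). The +/fl call was lost under normexp (−0.81, adjusted p = 0.499), when arrays were scaled by their median (−0.57, adjusted p = 0.238) and without resting +/fl replicates 1 and 3 together (−0.54, adjusted p = 0.0607). Leaving out any single array kept it.

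At the 3′ probe of Klf2 the resting +/fl arrays gave 6.04, 6.97 and 6.81, and the resting fl/fl arrays gave 7.58, 7.23 and 7.35. The LPS values were 3.40, 3.68 and 3.56 in LPS +/fl and 3.46, 3.20 and 3.75 in LPS fl/fl. All 6 LPS arrays lay far below all 6 resting arrays. The difference was −3.06 in +/fl (SE 0.24, adjusted p = 2.73e-06 over all probes) and −3.91 in fl/fl (SE 0.24, adjusted p = 6.88e-07). Neither Klf2 probe was saturated on any array, and each was above background on all 12. In resting cells the brighter probe was lower in fl/fl (−0.58, SE 0.19, adjusted p = 0.0828 over all probes) and the 3′ probe higher (0.77, SE 0.24, adjusted p = 0.0731), and neither difference was called, although the genotypes did not overlap at either probe. The mean over both probes gave a resting genotype difference of 0.10 (adjusted p = 0.751) and an LPS response of −2.08 in fl/fl (adjusted p = 2.75e-06). The sign of the resting genotype difference in Klf2 thus differed between its probes.

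**Figure D2:**
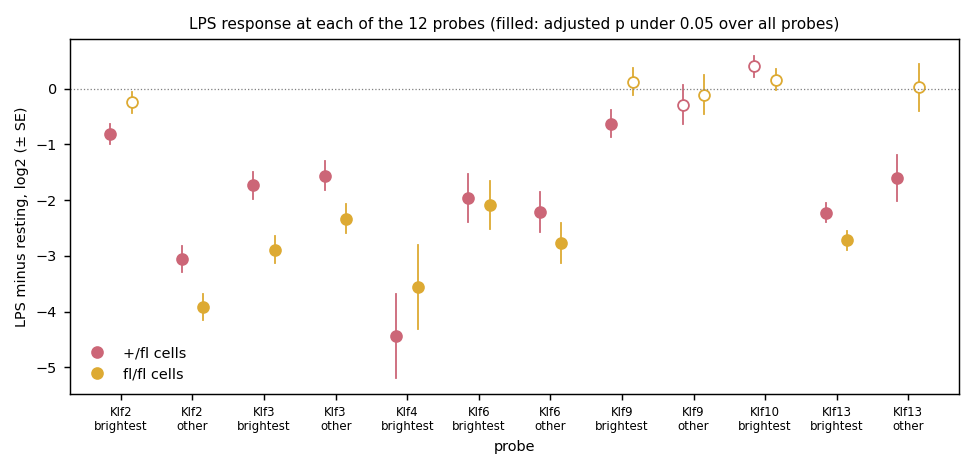
LPS minus resting signal on the log2 scale (y axis, with 1 SE) at each of the 12 probes (x axis) in +/fl and fl/fl cells. Filled points had an adjusted p under 0.05 over all probes tested. The Klf2 probes differ most in size among the genes whose probes were both called in +/fl cells, with −0.81 and −3.06, and the other Klf13 probe was above background on no LPS +/fl array.

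Klf6, an activator that many stimuli induce early, gave 3.13, 5.27 and 4.50 on the resting +/fl arrays and 4.58, 4.52 and 4.51 on the resting fl/fl arrays. LPS arrays gave 2.32, 2.14 and 2.56 in +/fl and 2.57, 2.09 and 2.70 in fl/fl. The 3 resting fl/fl arrays were close together, resting +/fl arrays were spread widely (SD 1.08), and no LPS array reached a resting one. Klf6 fell 3.89-fold in +/fl (−1.96, SE 0.43, adjusted p = 0.00292) and 4.23-fold in fl/fl (−2.08, SE 0.43, adjusted p = 0.00216). Both calls were lost under normexp background correction (−1.86, adjusted p = 0.151, and −1.60, adjusted p = 0.182), and without resting +/fl replicate 1 the +/fl difference was −2.54 (adjusted p = 3.64e-05). Within slides the +/fl difference was −2.92 on slide 1 and −0.81 on slide 2, the slide that held resting +/fl replicate 1, and in fl/fl it was −1.82 on slide 2 and −2.17 on slide 3. As a block, slide gave −2.10 (adjusted p = 0.00516) in +/fl and −1.94 (adjusted p = 0.00793) in fl/fl. The second Klf6 probe was also lower, with differences of −2.21 and −2.77 (adjusted p = 0.000450 and 0.000106 over all probes). Its group means were highest in resting fl/fl, then resting +/fl, then LPS fl/fl and LPS +/fl cells, and only the step from resting to LPS separated neighbours.

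Klf3, the CtBP-recruiting repressor, was the only member called in the resting genotype comparison and also fell after LPS. Its brightest probe spans chr5:64177140-64177720 of mm7 with only 60 letters, so it crosses a splice junction, and it is shown because the genotype call rests on it.
Klf3 brighter probe: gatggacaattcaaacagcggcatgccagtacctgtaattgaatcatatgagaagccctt
It gave −0.10, 0.31 and 0.70 on the resting +/fl arrays and 1.44, 1.53 and 1.42 on the resting fl/fl arrays. The LPS values were −1.08, −1.38 and −1.83 in +/fl and −1.24, −1.77 and −1.27 in fl/fl. Every resting fl/fl array was above every resting +/fl array, these were above every LPS array, and the LPS groups overlapped. Klf3 fell 3.33-fold in +/fl cells (−1.74, SE 0.24, adjusted p = 0.000151) and 7.41-fold in fl/fl cells (−2.89, SE 0.24, adjusted p = 4.81e-06). The +/fl call was lost under normexp (−1.18, adjusted p = 0.0811). Within slides the +/fl difference was −1.92 on slide 1 and −0.98 on slide 2, and the fl/fl difference −2.80 on slide 2 and −2.93 on slide 3. The block on slide gave −1.67 (adjusted p = 0.00130) and −2.96 (adjusted p = 7.28e-05). The fall was larger in fl/fl by 1.15 on the log2 scale (interaction −1.15, SE 0.34, unadjusted p = 0.00741), which did not pass the adjustment (adjusted p = 0.131). The second Klf3 probe gave −1.56 and −2.33 (adjusted p = 0.000525 and 3.70e-05 over all probes).

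Klf13, 1 of the members that recruit Sin3A, had the smallest standard error of the members. Its brightest probe maps to chr7:59641560-59687788 on the minus strand of mm7 across an intron, and the capitals mark letters that encode the conserved linker between zinc fingers.
Klf13 brighter probe: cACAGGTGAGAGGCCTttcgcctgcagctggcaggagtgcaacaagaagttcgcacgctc
It read 3.30, 3.49 and 3.86 on the resting +/fl arrays, 4.17, 3.89 and 3.99 on the resting fl/fl arrays, 1.38, 1.26 and 1.34 in LPS +/fl, and 1.44, 1.03 and 1.41 in LPS fl/fl. The resting genotypes did not overlap and the LPS genotypes did. Klf13 fell 4.67-fold in +/fl (−2.22, SE 0.16, adjusted p = 1.76e-06) and 6.60-fold in fl/fl (−2.72, SE 0.16, adjusted p = 5.75e-07). Within slides its differences were −2.19 and −1.92 in +/fl and −2.49 and −2.75 in fl/fl, and with slide as a block they were −2.21 (adjusted p = 3.97e-05) and −2.74 (adjusted p = 1.70e-05). A second Klf13 probe, made to a kidney cDNA, was dim and above background on 6 of 12 arrays. It was above background on all 3 resting +/fl arrays and on no LPS +/fl array, so the LPS level of +/fl cells has only a bound there. In fl/fl cells it was above background on 1 of 3 resting and 2 of 3 LPS arrays, so no fl/fl response is read from it.

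Klf9, a glucocorticoid-induced repressor, was dim at both probes. It read −2.23, −1.27 and −1.36 on the resting +/fl arrays, −2.38, −2.06 and −2.42 on the resting fl/fl arrays, −2.20, −2.08 and −2.47 in LPS +/fl, and −2.12, −2.01 and −2.34 in LPS fl/fl. Resting +/fl replicates 2 and 3 stood above the other 10 arrays, and every pair of groups next to each other in level overlapped. From the highest mean the order was resting +/fl, LPS fl/fl, LPS +/fl, resting fl/fl. The fall in +/fl cells was 1.55-fold (−0.63, SE 0.24, adjusted p = 0.0457), and in fl/fl cells the difference was 0.13 (95% confidence interval −0.41 to 0.67, adjusted p = 0.682). The +/fl call was lost in 22 of 31 alternatives, with 11 of the 12 single arrays left out (adjusted p between 0.0508 and 0.158), and it held without resting +/fl replicate 1 (−0.94, adjusted p = 0.00120). With slide as a block it was −0.62 (adjusted p = 0.0856), and within slides it was −1.01 on slide 1 and 0.03 on slide 2. At the second Klf9 probe the differences were −0.28 and −0.11 (adjusted p = 0.518 and 0.814 over all probes).

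Klf10, which transforming growth factor beta induces early, was the only member whose mean was higher after LPS in both genotypes, and neither difference was called. It read 0.53, 0.88 and 0.55 on the resting +/fl arrays, 1.04, 0.67 and 0.85 on the resting fl/fl arrays, 0.98, 1.35 and 0.85 in LPS +/fl, and 1.17, 0.69 and 1.19 in LPS fl/fl. The differences were 0.41 in +/fl (95% confidence interval −0.01 to 0.82, adjusted p = 0.0876) and 0.16 in fl/fl (−0.25 to 0.58, adjusted p = 0.494). The order of group means was LPS +/fl, LPS fl/fl, resting fl/fl, resting +/fl, and each neighbouring pair overlapped. With the repaired background correction the +/fl difference of 0.42 was called (adjusted p = 0.0397), and scaling by the median turned the fl/fl difference to −0.14 (adjusted p = 0.817).

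**Figure D3:**
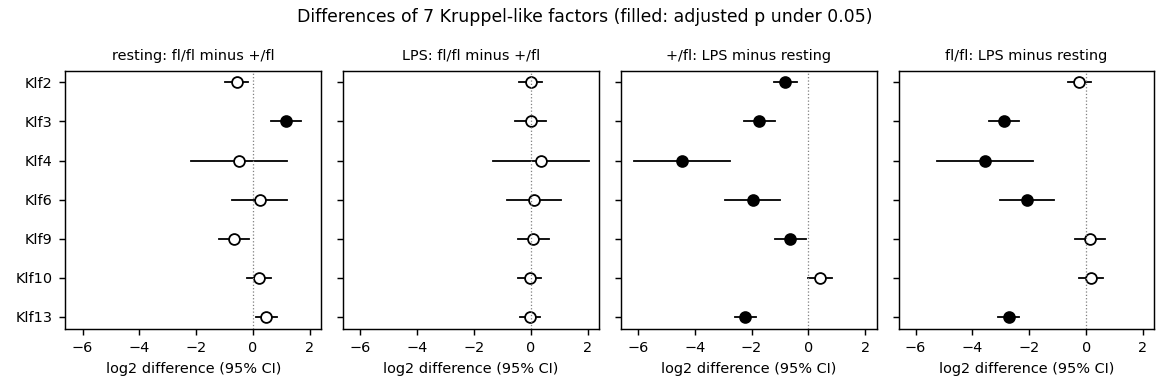
Log2 differences (x axis, with 95% confidence intervals) of the 7 members (y axis), each at its brightest probe, between genotypes in resting cells and after LPS, and between LPS and resting cells of each genotype. The other Klf2 probe, which fell in both genotypes, is not shown. Filled points had an adjusted p under 0.05 over all genes, which holds for Klf3 in resting cells, 6 members in +/fl and 4 in fl/fl cells, and for no member between genotypes after LPS.

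Between the genotypes at rest, 1 of 7 members was called, where 8.83% of all genes were called, 4.64% higher and 4.18% lower in fl/fl. Klf3 was 2.23-fold higher in fl/fl than in +/fl (1.16, SE 0.24, adjusted p = 0.0224), and the difference was 1.12, 1.63 and 0.72 within slides 1, 2 and 3 and kept its call with slide as a block (adjusted p = 0.0424). The call was lost without resting fl/fl replicate 1 (1.17, adjusted p = 0.0686), resting fl/fl replicate 2 (1.13, adjusted p = 0.0517) or resting +/fl replicate 1 (0.95, adjusted p = 0.0673). The second Klf3 probe was higher by 0.70 and was not called (SE 0.26, adjusted p = 0.122 over all probes). Klf2, Klf3 and Klf13 were the 3 members whose resting genotypes did not overlap, and 31.2% of all genes did not. An unadjusted p under 0.05 was found for 4 of the 7, and for 4751 of all 17133 genes. Klf13 was 0.47 higher in fl/fl (95% confidence interval 0.10 to 0.83, adjusted p = 0.0982) and Klf10 0.20 higher (−0.22 to 0.62, adjusted p = 0.526). Klf9 differed by −0.67 (−1.21 to −0.13, adjusted p = 0.110), Klf4 by −0.50 (−2.20 to 1.19, adjusted p = 0.719) and Klf6 by 0.24 (−0.72 to 1.20, adjusted p = 0.772).

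After LPS no member was called between the genotypes, where 1.62% of all genes were, 0.858% higher and 0.765% lower in fl/fl, and none of the 7 had groups that did not overlap, against 33.2% of all genes. The differences ran from −0.04 for Klf10 to 0.37 for Klf4. The 95% confidence intervals were −0.54 to 0.55 for Klf3, −0.41 to 0.41 for Klf2 and −0.39 to 0.33 for Klf13, and wider for Klf4 (−1.32 to 2.07) and Klf6 (−0.85 to 1.08). On slide 2, the only slide that held both LPS genotypes, the differences ran from −0.19 for Klf3 to 0.38 for Klf6. None of the 7 had an unadjusted p under 0.05 (3681 of all 17133 genes did), and no alternative called any. The interaction, LPS response of fl/fl minus that of +/fl, was 0.57 for Klf2 (adjusted p = 0.251), 0.88 for Klf4 (adjusted p = 0.666), −0.12 for Klf6 (adjusted p = 0.925), 0.76 for Klf9 (adjusted p = 0.247), −0.24 for Klf10 (adjusted p = 0.622) and −0.50 for Klf13 (adjusted p = 0.256). Klf3 was the 1 member of 7 with an unadjusted interaction p under 0.05, and 3475 of all 17133 genes had one.

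The resting +/fl arrays varied in several members at once. Replicate 1 was the lowest of the 3 arrays at 10 of the 12 probes and at 6 of the 7 brightest probes, the exception among these being Klf2. Set against the mean of resting fl/fl, replicate 1 deviated by −1.78 for Klf4, while replicates 2 and 3 were 1.97 and 1.32 higher. For Klf6 the 3 arrays deviated by −1.41, 0.73 and −0.04. Without replicate 1, Klf4 was called lower in resting fl/fl (−1.65, adjusted p = 0.0149), but without replicate 2 its genotype difference was 0.23 (adjusted p = 0.868) and without replicate 3 it was −0.09 (adjusted p = 0.965). For Klf6 the difference turned from 0.24 to −0.35 without replicate 1 (adjusted p = 0.460). Without that array Klf9 was called lower (−0.97, adjusted p = 0.0230), and Klf3 was not called. The 13 early LPS response genes measured, listed for their known role, moved both ways with LPS here. In +/fl 4 rose and 5 fell, where 30.7% of all genes rose and 27.0% fell. In fl/fl 5 rose and 5 fell, where 30.2% of all genes rose and 25.4% fell. Egr2 fell in both (−2.05 and −1.39). Atf3 rose in fl/fl (5.24), from a mean of −3.88 to 1.36. Its mean was also higher after LPS in +/fl, at 1.11 against −0.95 in resting +/fl (SD 1.45). On the 3 resting +/fl arrays the medians of this list were −0.97, 1.49 and 0.52, in the order seen for Klf4 and Klf6. They ran from −0.29 to 0.30 in resting fl/fl, −0.24 to 0.04 in LPS +/fl and 0.17 to 0.23 in LPS fl/fl (each gene centred on its mean over 12 arrays). Monocyte, macrophage and neutrophil markers, 16 of them measured and 11 above background on every array, had medians of 1.96, 0.17 and 1.28 against 0.09 to 0.53 in resting fl/fl. Erythroid markers had medians of 2.21, 0.21 and 2.13 against −1.04 to 0.60. The part of these lists in the resting differences of the members was not tested.

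**Figure D4:**
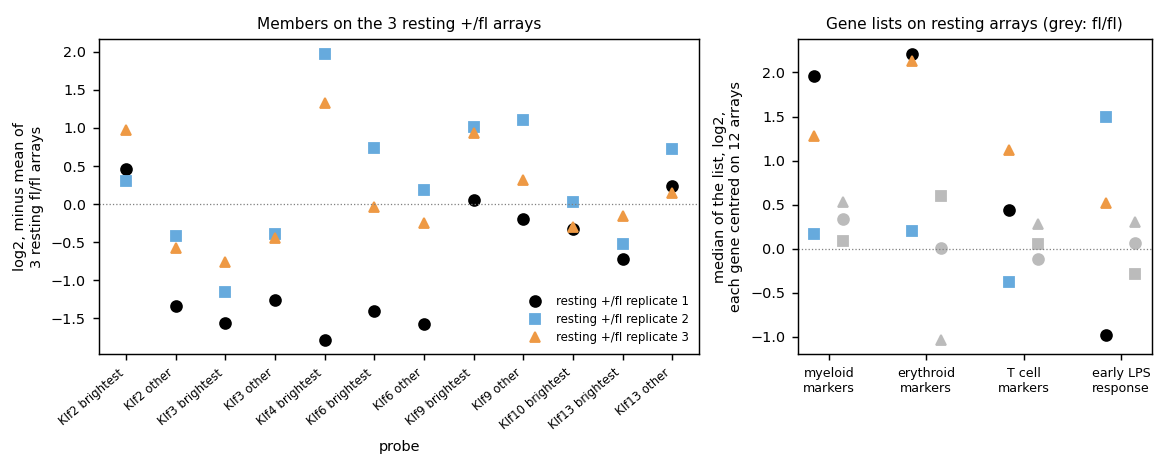
Left, log2 signal of each of the 12 probes (x axis) on the 3 resting +/fl arrays minus the mean of the 3 resting fl/fl arrays; replicate 1 is the lowest at 10 of 12 probes. Right, medians of 4 gene lists on the resting arrays, each gene centred on its mean over 12 arrays, with +/fl arrays coloured as on the left and fl/fl arrays in grey; replicate 1 is at −0.97 for early LPS response genes and at 1.96 for myeloid markers.

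Markers of other cells were also called with LPS. Over all genes 30.7% rose and 27.0% fell in +/fl cells, and 30.2% rose and 25.4% fell in fl/fl cells. Counts near these shares do not set a list apart from all genes. Of the 16 monocyte, macrophage and neutrophil markers, 11 fell and none rose in +/fl cells, and 6 fell and 3 rose in fl/fl cells. Their list medians ran from 0.17 to 1.96 in resting +/fl, 0.09 to 0.53 in resting fl/fl, −1.08 to −0.78 in LPS +/fl and −0.62 to −0.05 in LPS fl/fl. C1qa, Fcgr1 and Vcam1 were above background on no LPS +/fl array, and Csf1r was on 1 of 3. In LPS fl/fl, C1qa, Fcgr1, Vcam1 and Csf1r were above it on 1, 2, 2 and 3 of 3 arrays. Of the 16 markers 11 were above background on all 12 arrays, among them Adgre1, Cd14, S100a8 and S100a9. The mean of Cd14 over 12 arrays (−1.59) was above its means in resting +/fl (−1.83) and resting fl/fl (−2.39). For S100a9 these means were 3.86, 4.34 and 1.53. Of 9 T cell markers 4 fell and none rose in +/fl, and 2 fell and 1 rose in fl/fl. Of 5 endothelial and stromal markers tested 3 fell in +/fl, and 2 fell and 1 rose in fl/fl, with Tie1 above background on no array. Of 9 erythroid markers 4 fell and 2 rose in +/fl, and 2 fell and 1 rose in fl/fl, with list medians of −1.83 to 0.46 on the LPS +/fl and −1.85 to 0.53 on the LPS fl/fl arrays. B cell markers fell too, 7 of 9 in +/fl and 6 of 9 in fl/fl. The part of other cells in the falls of Klf2, Klf3, Klf4, Klf6, Klf9 and Klf13 was not tested.

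For each called member the 3 most similar genes were found by the root mean square difference over the 12 arrays, after each gene was centred on its own mean. Klf13 lay closest to Map3k1 (0.11), Chst3 (0.13) and Cat (0.13), whose LPS differences in +/fl cells were −2.26, −2.19 and −2.11. Klf3 lay closest to Crybg3 (0.25), Wscd2 (0.31) and then Klf13 itself (0.31). Among the 7, Klf3 and Klf13 were each other's closest member (0.31), and so were Klf2 at its brighter probe and Klf9 (0.29). Klf4 lay closest to Fosb (0.37), Rgs2 (0.58) and Zfp36 (0.68), and its own SD over the 12 arrays was 2.28. Klf6 lay closest to a probe named only NAP056774-1 (0.27), the unnamed probe A_52_P836776 (0.29) and Frat2 (0.29). Klf9 had Axin1 (0.21) and Dusp22 (0.22) among its 3 closest, and Klf2 at its brighter probe lay closest to Gltp (0.12), NAP050809-1 (0.14) and Rcan3 (0.16). The SD over the 12 arrays was 0.39 for Klf9 and 0.40 for Klf2.

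The counts of the lists that follow stand against the shares of all genes given above: 30.7% rose and 27.0% fell in +/fl cells, 30.2% rose and 25.4% fell in fl/fl cells, and at rest 4.64% were higher and 4.18% lower in fl/fl. List medians stand against all-gene medians of −0.02 in +/fl, 0.07 in fl/fl and 0.05 between the resting genotypes. Of the 10 other Kruppel-like factors listed, 8 were measured. After LPS 5 of 8 fell and 1 rose in +/fl cells, and 2 of 8 fell and none rose in fl/fl cells, with list medians of −0.72 and −0.45. Klf12, which like Klf3 recruits CtBP, differed by −2.68 in +/fl (adjusted p = 0.000295) and −1.65 in fl/fl (adjusted p = 0.00662), and it was above background on 2 of 3 LPS +/fl arrays. Klf16 rose in +/fl (0.87, adjusted p = 0.000362), and Klf11, a close relative of Klf10, fell in both genotypes (−1.03, adjusted p = 0.0296, and −1.21, adjusted p = 0.0146). Klf1, the erythroid member, fell in +/fl (−3.71, adjusted p = 0.0187), as did Klf7 (−0.41, adjusted p = 0.0284). Klf1 was above background on 2 of 3 LPS +/fl arrays and also stands in the erythroid list. Klf5, also called, was above background on all 3 resting +/fl and no LPS +/fl array, so its change has only a bound. Between the resting genotypes 1 of 8 was called, Klf17, which was well above background on none of the resting +/fl arrays and on 2 of 3 resting fl/fl arrays.

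Of 8 measured genes linked to Klf2 in lymphocyte homing, 6 fell and 2 rose with LPS in +/fl cells and 6 fell and 1 rose in fl/fl cells, with medians of −2.89 and −3.41. S1pr1, the receptor for lymphocyte exit and a direct Klf2 target in T cells, fell 22.5-fold in +/fl (−4.49, adjusted p = 4.72e-08) and 24.1-fold in fl/fl (−4.59, adjusted p = 3.77e-08). Itgb7, which encodes an integrin chain used in homing, fell in both (−4.90 and −5.02, adjusted p = 6.60e-09 and 8.47e-09). At rest 4 of 8 homing genes were higher in fl/fl and none lower (median 0.56 against 0.05 for all genes), among them Itgb7 (0.75, adjusted p = 0.00830), Gpr183 (0.77, adjusted p = 0.0162) and Cxcr4 (1.49, adjusted p = 0.0297). After LPS Itgb7 alone of the 8 was called between genotypes (0.63, adjusted p = 0.0353).

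The list of genes that rise when Klf2 is lost in B cells holds many marginal zone genes. At rest 5 of its 7 genes were lower in fl/fl and none higher, with a median of −1.85, and after LPS 3 of 7 were lower (Cr2, Dtx1 and Cd9) and none higher. Cr2, which encodes CD21, was 5.51-fold lower at rest (−2.46, adjusted p = 2.86e-05), S1pr3 7.78-fold (−2.96, adjusted p = 0.000120), Asb2 4.62-fold (−2.21, adjusted p = 0.00384) and Dtx1 2.18-fold (−1.12, adjusted p = 0.00405). The narrower gate takes CD21lo cells, and the labels do not say which samples came from it, so gate and genotype cannot be told apart for Cr2 or for the other marginal zone genes of this list. After LPS the S1pr3 difference was −0.35 (adjusted p = 0.305), and its interaction was called (2.61, adjusted p = 0.00754). With LPS 4 of 7 fell and 2 rose in +/fl, and 5 fell and 2 rose in fl/fl, among them Cd1d1, which presents lipids (−3.25 and −2.97, adjusted p = 8.48e-08 and 1.46e-07).

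Of 23 FOXO factors and other quiescence genes measured, 14 fell and 3 rose with LPS in +/fl and 12 fell and 4 rose in fl/fl, with medians of −1.15 and −0.83. Cdkn2d, an inhibitor of cyclin-dependent kinases 4 and 6, fell 24.4-fold in +/fl (−4.61, adjusted p = 4.72e-08) and 26.5-fold in fl/fl (−4.73, adjusted p = 4.55e-08). Ccng2 (−2.83 and −3.14), Sesn1 (−2.37 and −2.16), Pik3ip1, an inhibitor of PI3 kinase (−3.26 and −1.88), and Tsc22d3 (−2.77 and −3.55) fell in both genotypes. At rest Cdkn2c (−0.99, adjusted p = 0.0151) and Pik3ip1 (−1.03, adjusted p = 0.0218) were lower in fl/fl and Foxp1 (0.58, adjusted p = 0.0461) was higher. Of 15 proliferation genes 4 rose and 2 fell in +/fl, and 5 rose and 2 fell in fl/fl, led by Ccnd2 (3.68 and 4.60) and Myc (2.85 and 3.37). At rest 8 of the 15 were lower in fl/fl and none higher (median −1.90), among them E2f1 (−1.31, adjusted p = 0.00626) and Myc (−0.89, adjusted p = 0.0169), and after LPS 2 of 15 were lower. On the single resting +/fl arrays the median of the proliferation list was 1.15, 0.17 and 1.29, against −1.64 to −0.68 in resting fl/fl, each gene centred on its mean over 12 arrays. The erythroid (2.21, 0.21 and 2.13) and myeloid (1.96, 0.17 and 1.28) medians were also lowest on replicate 2, and their part in the proliferation difference was not tested.

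**Figure D5:**
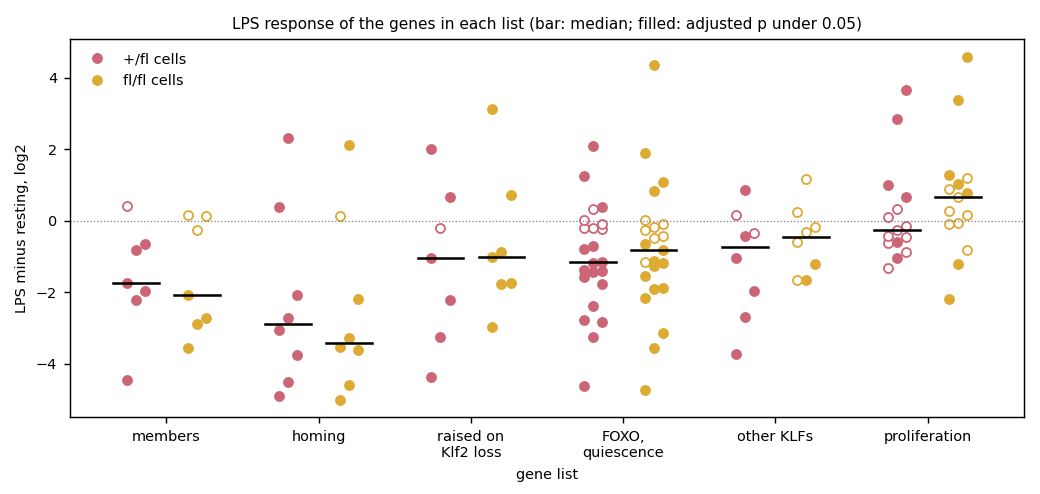
LPS minus resting signal on the log2 scale (y axis) of each gene in 6 lists (x axis) in +/fl and fl/fl cells, with a bar at the median and filled points for an adjusted p under 0.05. The medians are −1.74 and −2.08 for the members, −2.89 and −3.41 for homing genes and −0.24 and 0.66 for proliferation genes.

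Genes around the members were taken from lists chosen by role. In the ERK5 and MEF2 pathway, which acts upstream of Klf2 and Klf4, 3 of 8 fell and 2 rose in +/fl and 5 fell and 2 rose in fl/fl, none differed between genotypes, Mef2c fell (−1.97 and −2.16, adjusted p = 1.49e-05 and 8.79e-06) and Mapk7, which encodes ERK5, rose (0.63 and 0.55, adjusted p = 0.000147 and 0.000432). Of 13 KLF corepressors and coactivators 1 fell and 5 rose in +/fl, and 4 fell and 2 rose in fl/fl. Kat2b, an acetyltransferase, fell in both (−2.56 and −2.45, adjusted p = 2.60e-07 and 3.99e-07). At rest Ep300 (0.93, adjusted p = 0.0121), Crebbp (0.71, adjusted p = 0.0256) and Ncor1 (0.45, adjusted p = 0.0400) were higher in fl/fl. Of 8 ubiquitin ligases of KLF proteins 1 rose and none fell in +/fl, and 1 rose and 1 fell in fl/fl.

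Among 11 genes of the early response to transforming growth factor beta, the setting in which Klf10 is best known, 3 rose and 3 fell in +/fl and 3 rose and 5 fell in fl/fl. Skil, a repressor of SMAD signalling, rose (1.81 and 1.37, adjusted p = 1.64e-06 and 1.17e-05), and at rest Ski, Skil and Smad7 were higher in fl/fl (0.87, 0.65 and 0.81, adjusted p = 0.00384, 0.0202 and 0.0342). Of 9 glucocorticoid-response genes, the setting of Klf9, 6 fell and none rose in +/fl and 7 fell in fl/fl. Tsc22d3 and Zfp36 fell in both (Zfp36, −3.58 and −4.03), and at rest Sgk1 was higher in fl/fl (1.37, adjusted p = 0.0342). In the SP family, the closest relatives of the Kruppel-like factors, 2 of 5 measured rose and 2 fell in +/fl and 1 rose and 2 fell in fl/fl. Sp3 fell (−0.64 and −1.04, adjusted p = 0.000994 and 4.00e-05), and Sp1 was higher in resting fl/fl (1.02, adjusted p = 0.0124).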

How the data were processed

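Splenic B cells were measured on 12 Agilent 1-colour mouse arrays (design 014868, probe positions on mm7 per the file headers). The values are intensity, the background-subtracted gProcessedSignal deposited per array, made with Feature Extraction 9.5.3.1 per the file headers (9.1 per the submitters' processing notes). The series' deposited value table holds intensity too, with the same median in every column, and served as an alternative; how it was normalised is not stated. Spots flagged as non-uniform or as outliers were left out, which removed 87 of 41174 probes. Replicate spots were averaged on the log2 scale, and each array's 75th percentile was subtracted. A probe was tested if it rose well above background on 3 or more of the 12 arrays (25677 probes, 17133 genes), and each gene was read at its brightest. The 12 arrays limit the precision.

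Group means were fitted with limma 3.58.1 in R 4.3.3 (with the data.table package, version 1.17.8), checked on simulated data, with Benjamini-Hochberg adjustment over all genes, or over all probes for a single probe. Adjusted p-values are from that fit. Slide was taken from the file headers.

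Members and lists were chosen with earlier results of these data known. Genes named were the 7 members, Ebf1, per list the called genes with the smallest p (at most 4), and the 3 nearest genes of each called member. Klf5, Cd14 and S100a9, and genes given only for their detection, were named after their values were seen. So were Klf11, Pik3ip1, Tsc22d3 and Atf3 in the genotype where they were not among those 4. Some genes that this rule names are not reported here singly. Lists were described by counts and medians, to be read beside those of all genes. Alternatives were normexp background correction (offset 50) and a repaired form, quantile or median scaling, dropping the dim-probe filter or asking for all 12 arrays, the deposited value table, a block on slide or replicate number, fitting 6 arrays alone, a trended robust eBayes, weighted arrays, averaged or separate probes, leaving out arrays, and a threshold of 0.01. Reading the dimmer probe of each member was added after seeing the data. Promoters came from RefSeq.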

Additional observations from a re-analysis of the deposited data

How the results depend on the processing

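In resting cells the count of members called between genotypes was 1. It was 0 under normexp, scaling by the median, no dim-probe filter, the 6 arrays of the comparison, the dimmer probe (chosen after seeing the data) or a threshold of 0.01, and 2 with a filter on all 12 arrays or with eBayes with trend and robust. Leaving out 1 array gave 0 to 2. The count of 6 in +/fl fell to 2 under normexp, which ended the calls of Klf2, Klf3, Klf6 and Klf9 there and that of Klf6 in fl/fl, and leaving out 1 array gave 5 to 6. The counts of 4 in fl/fl and of 0 after LPS and in the interaction did not change by over 1.5 times under any alternative, and leaving out 1 array gave 4, 0 and 0. The genes behind the fl/fl count did change. Klf2 was called there with the mean over its probes (−2.08, adjusted p = 2.75e-06) and at its dimmer probe (−3.91, adjusted p = 6.88e-07). At the dimmer Klf13 probe, above background on 1 of 3 resting and 2 of 3 LPS fl/fl arrays, the fl/fl difference was 0.0267, from which no response is read. As a check on pairing, deviations of arrays with the same replicate number were correlated, giving values from −0.145 to 0.126. With 3 arrays per group this cannot show that the arrays were unpaired. That check does not cover the 2 +/fl arrays that share a sample-name number, since their replicate numbers differ. Without those 2 arrays the only member call that changed was that of Klf9 in +/fl, which was lost (−0.53, adjusted p = 0.202). With a replicate block the resting count was 0 and Klf3's adjusted p was 0.0559. Its other counts were 0 after LPS, 6 in +/fl, 4 in fl/fl and 0 in the interaction. Scaling by the median shifted the median of all genes by −0.52 between genotypes after LPS, 0.24 in +/fl, −0.30 in fl/fl and −0.54 in the interaction. Over all genes the called counts of 1512 at rest, 278 after LPS, 9880 in +/fl, 9521 in fl/fl and 28 in the interaction ran, over the alternatives, from 0, 0, 1435, 2352 and 0 (each under normexp) to 2226 (eBayes with trend and robust), 2768 (array weights), 14650 and 14105 (counts of probes) and 409 (eBayes with trend and robust). The causes were not tested.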
